A study of Homo sapiens with 4 samples.

Results

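Mitosis, kinetochore and condensin genes were examined in Jurkat T cells, a human leukemia line in long use, after BET bromodomain inhibition. The genes were 52 of the 50868 genes in the deposited files, chosen by symbol, and each symbol matched 1 Ensembl identifier. Jurkat cells labelled as wild type had been treated for 24 h with DMSO, with 0.5 μM JQ1, with DMSO and 150 ng/ml PHA, or with 0.5 μM JQ1 and 150 ng/ml PHA. JQ1 is a small molecule that displaces BET proteins from acetylated chromatin, DMSO is its solvent control, and PHA is a lectin from beans used to activate T cells. Each of the 4 conditions was measured by RNA-seq in 1 library, so no difference below has a replicate check, no test between conditions was made and no p-value is given. The intervals cover counting error only.

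Mitosis is driven by CDK1 bound to cyclin A or cyclin B, which the CDC25 phosphatases switch on. Condensin then compacts the chromosomes, the kinetochore ties each of them to the spindle, and the spindle checkpoint holds the cell until all are attached. CDC20 next turns on the anaphase-promoting complex, which with the ubiquitin-conjugating enzyme UBE2C marks securin (PTTG1) and cyclin B for destruction, so that separase (ESPL1) can open cohesin. Most of these genes are transcribed late in the cell cycle, under the control of the DREAM and MuvB complexes and FOXM1. Their mRNA in a culture therefore reflects both how many cells divide and how much RNA each of them holds. In bulk RNA, more or fewer cells in division and more or less RNA per cell cannot be told apart.

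The element through which MuvB complexes bind these promoters, the cell cycle genes homology region (CHR), has the core TTTGAA, with TTCGAA as a known variant. RefSeq promoter windows of 300 bases on GRCh38.p14 (250 before and 50 after an annotated start) were found for 44 of the 52 genes, 56 windows in all, and were searched on both strands. TTTGAA was found in 33 of the 56 windows, 58.9%, against 15.2% of all 35116 windows. Within the 100 bases before the start it was found in 20 windows of 20 genes, 35.7%, against 4.61% of all. TTCGAA was found in 4 windows, 7.14%, against 1.45% of all, and the CCAAT box (CCAAT) in 39, 69.6%, against 34.6%. A match describes the sequence and shows no binding. The following 12 stretches of 30 bases, each just before a RefSeq start, show the element in genes that were higher with JQ1 in both comparisons and in genes that were not. They are written 5′ to 3′ on the strand of the gene, and capitals mark 1 copy of the element in each. The element reads TTCAAA where it lies on the opposite strand. The ANLN stretch holds another copy on the opposite strand, left in lower case just before the marked one.
SMC4 (chr3:160399563-160399592, plus strand): gccgcactttttTTCAAAttagtggatccc
KIF11 (chr10:92593090-92593119, plus strand): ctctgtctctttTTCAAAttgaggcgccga
KIF4A (chrX:70290058-70290087, plus strand): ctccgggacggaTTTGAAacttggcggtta
ANLN (chr7:36389830-36389859, plus strand): ctgaaattcaaaTTTGAAcggctgcagagg
CDCA8 (chr1:37692481-37692510, plus strand): gtgactgtggagTTTGAAttgggtggcggt
NCAPG (chr4:17810932-17810961, plus strand): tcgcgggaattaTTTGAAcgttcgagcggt
CCNB2 (chr15:59105105-59105134, plus strand): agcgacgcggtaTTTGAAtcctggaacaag
PLK1 (chr16:23678848-23678877, plus strand): cccagcgccgcgTTTGAAttcggggaggag
BUB1B (chr15:40161034-40161063, plus strand): gggaccgttaaaTTTGAAacttggcggcta
PRC1 (chr15:90994538-90994567, minus strand): cccgtggcgcggTTTGAAattttgcggggc
CDCA5 (chr11:65084049-65084078, minus strand): cagggcgggtaaTTCGAAcgttttttgcag
CDC25B (chr20:3796260-3796289, plus strand): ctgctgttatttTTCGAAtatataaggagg

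Of these 12 stretches, 10 lie inside the span that the deposited files give for the gene, so that the RefSeq start shown is not the outermost one. The first 8 genes shown were higher with JQ1 both without and with PHA. BUB1B, PRC1 and CDCA5, with the same kind of element, were lower with JQ1 without PHA. The 20 genes with TTTGAA in the 100 bases before a start had a median log2 ratio of JQ1 to DMSO of 0.45 without PHA and 0.47 with PHA. The 24 other genes with a promoter window had medians of 0.15 and 0.29. The split was made after values had been seen and was given no test, and both sets spanned 0, from -0.16 to 0.74 and from -0.44 to 0.95 without PHA.

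Total counts per library lay between 18620954 and 19685401. All 13 T-cell markers, among them CD3D, CD3E and LCK, were above 1 FPKM (fragments per kilobase of gene, scaled to library size) in every library. Of 17 markers of B, myeloid, erythroid, epithelial and fibroblast cells, the 16 other than CD79A were at 0.675 FPKM or less. CD79A, a B-cell receptor component, measured 7.48 FPKM with DMSO and 6.33 with DMSO + PHA, against 1.06 with JQ1 and 1.013 with JQ1 + PHA, so it was lower in both JQ1 libraries. The summed FPKM of the T-cell markers was 383 with DMSO and 425 with DMSO + PHA, against 198 with JQ1 and 230 with JQ1 + PHA, and the part of either marker difference in the results below was not tested. HEXIM1, whose induction is a common readout of BET inhibition, stood at 36.2 and 34.6 FPKM in the DMSO and DMSO + PHA libraries and at 109 and 104 in the JQ1 and JQ1 + PHA libraries.

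All 52 mitosis genes were expressed in every library and all passed the filter used here, an average of 1 FPKM or more over the libraries, which 11503 genes passed. Their counts lay between 353 and 36560, with a median of 3176 against 696 over all genes that passed. TOP2A, the topoisomerase that untangles sister chromatids, had the highest FPKM, 186 after DMSO, 255 after JQ1, 190 after DMSO + PHA and 253 after JQ1 + PHA. TPX2, which targets Aurora A to the spindle, came next, with 166, 183, 153 and 184 in the same order. CDC25C, CENPA and SPC24 were the lowest, all between 3.87 and 6.85 FPKM. These levels rest on the gene lengths behind the deposited FPKM, which the counts put between 1985 bases for SPC25 and 18252 bases for SMC4.

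**Figure D1:**
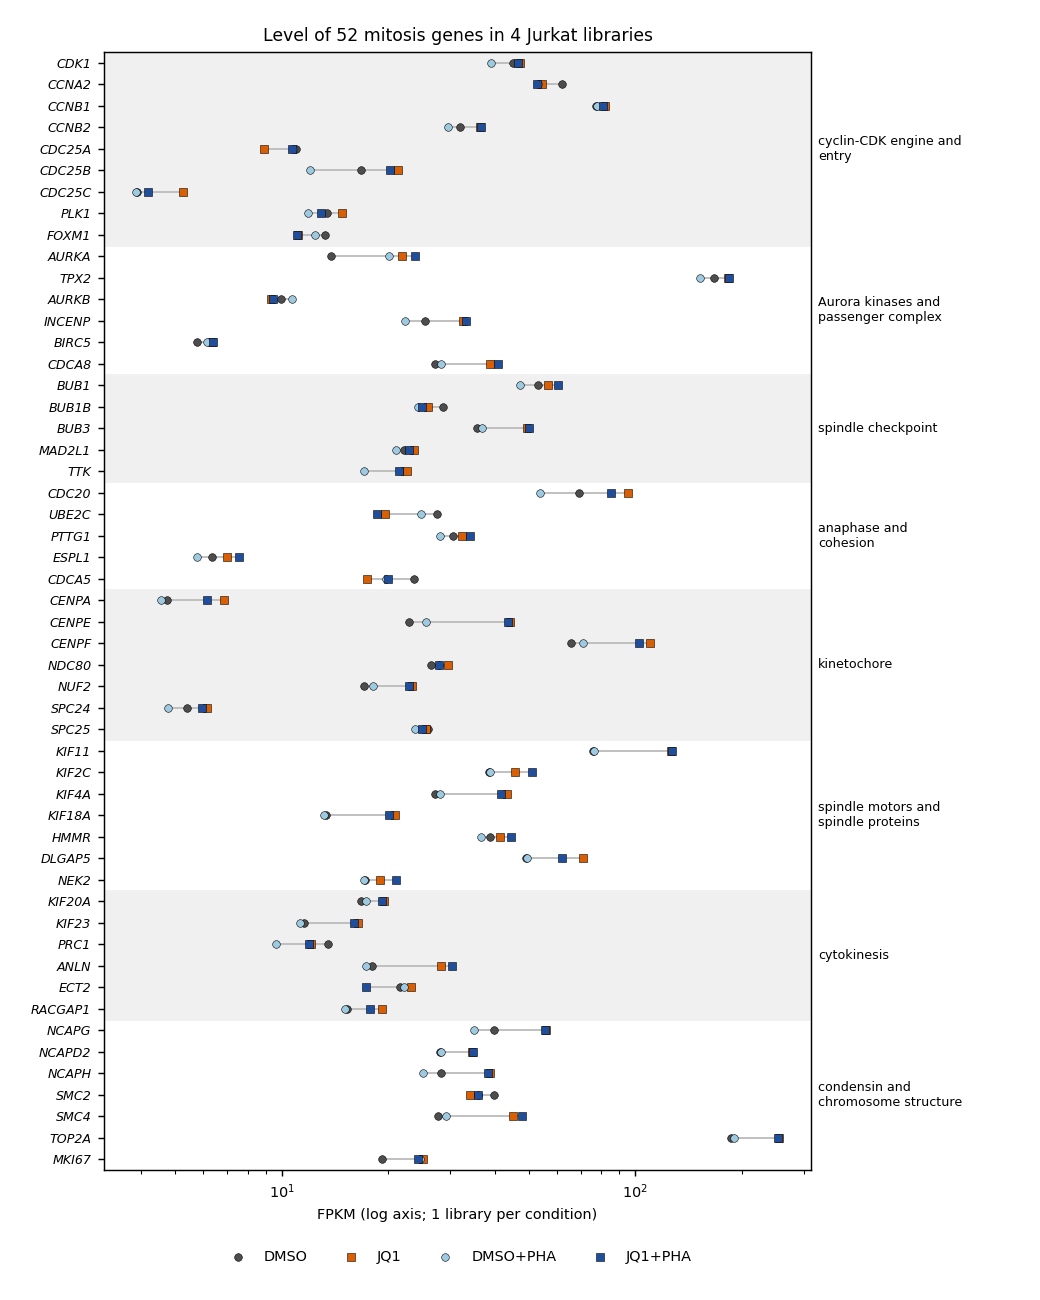
FPKM of the 52 genes (log axis) in the DMSO, JQ1, DMSO+PHA and JQ1+PHA libraries, 1 point per library, with genes grouped by role and a grey line from the lowest to the highest library. TOP2A and TPX2 lie farthest to the right, and for KIF11, SMC4, CENPE and ANLN both JQ1 points lie to the right of both DMSO points.

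JQ1 was compared with DMSO to see how transcript levels differed after 24 h of BET inhibition. The 52 genes together took 1.15% of the counts with DMSO (95% Wilson interval 1.15% to 1.16%) and 1.46% with JQ1 (1.46% to 1.47%). With PHA they took 1.12% (1.12% to 1.13%) with DMSO and 1.45% (1.45% to 1.46%) with JQ1. Without TOP2A and CENPF, which held the most counts, the share was 0.932% and 1.14% without PHA, and 0.895% and 1.14% with PHA. The summed share was thus higher in both JQ1 libraries, by more than counting error.

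A gene was called at a 2-fold difference in FPKM after 0.1 was added. At that size 0 of the 52 genes were higher and 0 lower with JQ1 without PHA, where 5.22% and 8.65% of all 11503 genes were. With PHA the numbers were 0 and 0 again, against 3.69% and 8% of all genes. At 1.5-fold, 8 genes (15.4%) were higher and 0 lower without PHA, against 14.8% and 19.3% of all genes. With PHA 9 (17.3%) were higher and 0 lower, against 11.7% and 17.8%. The share of genes past 1.5-fold upward without PHA was therefore near that of all genes, and no mitosis gene was 1.5-fold lower in either comparison.

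The differences were small but mostly in 1 direction. Without PHA, the counting interval of the log2 ratio lay above 0 for 39 genes (75%), below 0 for 8 and included 0 for 5. Over all genes it lay above 0 for 36.9% and below 0 for 38.7%. With PHA it lay above 0 for 38 genes (73.1%), below 0 for 4 and included 0 for 10, against 34.6% above and 38.2% below over all genes. Higher counts narrow the interval, and among genes whose mean FPKM reached 5, as 51 of the 52 did, 41% lay above 0 without PHA and 39.9% with PHA. The median log2 ratio of the mitosis genes was 0.20 without PHA and 0.30 with PHA, beside -0.01 and -0.02 for all genes. Both comparisons placed 35 genes above 0 and 2, FOXM1 and UBE2C, below 0, against 28% and 30.8% of all genes. These comparisons have no library in common.

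**Figure D2:**
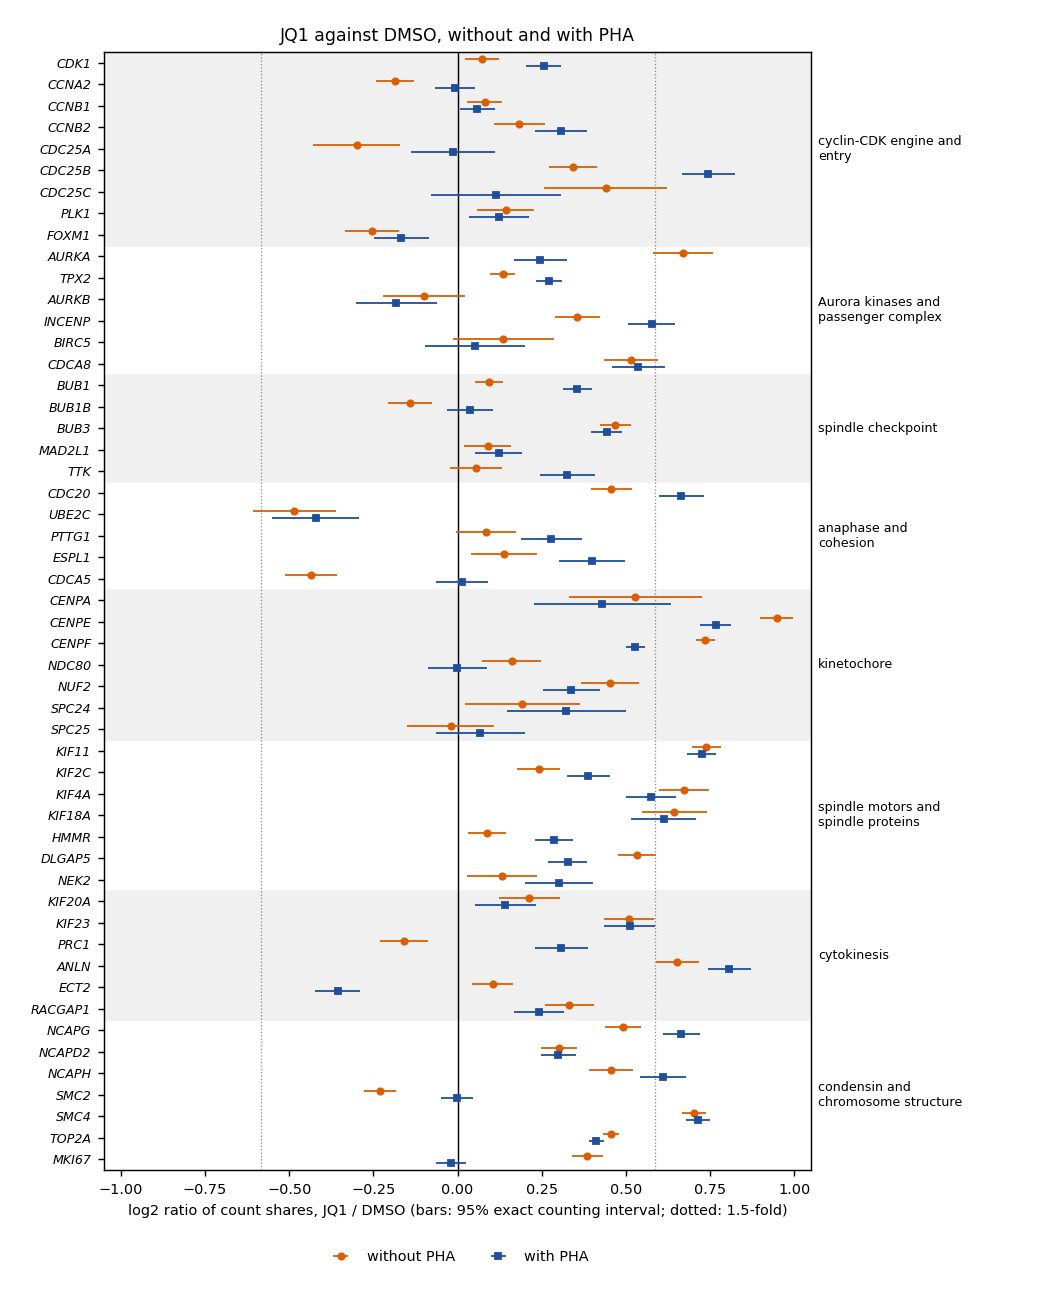
Log2 ratio of count shares, JQ1 over DMSO, for each gene without PHA (circles) and with PHA (squares), with 95% exact counting intervals as bars and 1.5-fold as dotted lines, 1 library per condition. Most points lie to the right of 0, FOXM1 and UBE2C lie to the left in both comparisons, and ECT2 and PRC1 change side.

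**Figure D3:**
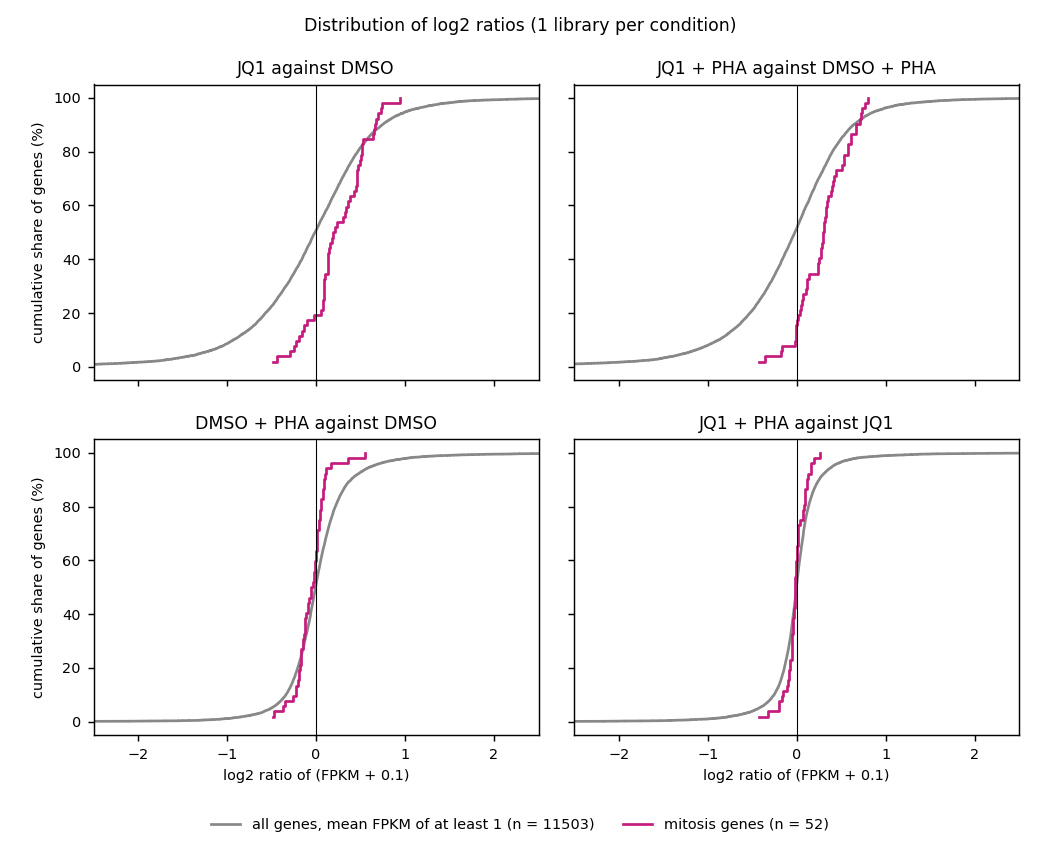
Cumulative share of genes by log2 ratio of FPKM plus 0.1 for the 52 mitosis genes and for all 11503 genes that passed the filter, in the 4 comparisons. In both JQ1 panels the mitosis curve lies to the right of the other at its middle, with medians of 0.20 and 0.30, and reaches neither -1 nor 1, while in both PHA panels the curves cross near 0.

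For the cyclins and CDK1 the ratios were within 1.5-fold in both comparisons. CCNB1, which encodes cyclin B1 and had the highest FPKM of the entry genes, measured 77.7 FPKM with DMSO and 82.1 with JQ1, and 77.8 and 81.1 in the matching PHA libraries. JQ1 over DMSO gave a log2 ratio of 0.08 (95% interval 0.03 to 0.13) in cells without PHA and of 0.06 (0.01 to 0.11) in cells with PHA, so all libraries lay within a narrow band. CCNB2, which encodes cyclin B2, was higher in both JQ1 libraries, at 36.3 against 32.0 FPKM without PHA and 36.5 against 29.5 with PHA, log2 ratios of 0.18 (0.11 to 0.26) and 0.31 (0.23 to 0.38). CDK1 (ENSG00000170312, GRCh38 chromosome 10, 60778331 to 60794852) measured 45.0, 47.3, 38.9 and 46.5 FPKM in the order DMSO, JQ1, DMSO + PHA and JQ1 + PHA, log2 ratios of 0.07 (0.02 to 0.12) and 0.26 (0.20 to 0.31). CCNA2, cyclin A2, was highest with DMSO at 62.1 FPKM and measured between 52.6 and 54.5 in the other libraries. The median log2 ratio of the 9 entry genes was 0.08 without PHA and 0.11 with PHA.

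The CDC25 phosphatases differed in direction. CDC25B measured 16.8 FPKM with DMSO and 21.3 with JQ1, and 12.1 and 20.2 in the PHA libraries, log2 ratios of 0.34 (0.27 to 0.41) and 0.74 (0.66 to 0.82). CDC25C, the entry gene with the largest ratio without PHA, measured 3.89 and 5.27 FPKM, and 3.87 and 4.19 with PHA, log2 ratios of 0.44 (0.26 to 0.62) and 0.11 (-0.08 to 0.31). FAM53C, whose span overlaps CDC25C, reached 1542 counts against at least 421 for CDC25C. It too was higher with JQ1 (log2 2.13 without PHA and 0.55 with PHA), and its part in the CDC25C counts was not tested. CDC25A had the lowest ratio of the entry genes, -0.30 (-0.43 to -0.17), with 11.0 FPKM under DMSO and 8.91 under JQ1, while the DMSO + PHA and JQ1 + PHA libraries, at 10.8 and 10.7, did not differ detectably. FOXM1, a transcription factor of mitotic genes, measured 13.2 FPKM with DMSO and 11.1 with JQ1, and 12.4 and 11.1 with PHA, so both JQ1 libraries were lower, by log2 ratios of -0.25 (-0.33 to -0.17) and -0.17 (-0.25 to -0.09). PLK1, a kinase that drives entry and spindle assembly, had log2 ratios of 0.14 (0.06 to 0.23) and 0.12 (0.03 to 0.21).

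The Aurora B passenger complex was uneven. CDCA8, which encodes borealin, exceeded its DMSO level 1.43-fold without PHA and 1.45-fold in PHA-treated cells, from 27.1 and 28.2 FPKM to 38.8 and 40.9 FPKM. INCENP, the scaffold of the complex, was 1.28-fold and 1.49-fold higher. AURKB, its kinase, measured 9.97 and 9.31 FPKM with DMSO and JQ1, and 10.7 and 9.44 where PHA was added, with log2 ratios of -0.10 (-0.22 to 0.02) and -0.18 (-0.30 to -0.06). BIRC5, which encodes survivin, lay between 5.77 and 6.38 FPKM, with log2 ratios of 0.14 (-0.01 to 0.29) and 0.05 (-0.10 to 0.20), neither detectable at this depth. The FPKM ratio of CDCA8 to AURKB within a library was 2.72 with DMSO and 2.63 with DMSO + PHA, against 4.17 with JQ1 and 4.33 with JQ1 + PHA. JQ1 cells thus had a 1.53-fold higher ratio in the absence of PHA (log2 difference 0.61, interval 0.47 to 0.76) and a 1.65-fold higher one in its presence (0.72, 0.58 to 0.86).

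AURKA (ENSG00000087586, chromosome 20, 56369389 to 56392337), the Aurora kinase of the spindle poles, stood apart in the DMSO library, with 13.7 FPKM against 20.1 after DMSO + PHA, 21.9 after JQ1 and 23.9 after JQ1 + PHA. The resulting log2 ratios of JQ1 to DMSO were 0.67 (0.58 to 0.76) without PHA and 0.25 (0.17 to 0.32) with it. TPX2, its partner, was 1.1-fold and 1.21-fold higher with JQ1.

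Among the spindle checkpoint genes, BUB3 measured 35.7 FPKM with DMSO and 49.4 with JQ1, and 36.8 and 49.99 with PHA, 1.38-fold and 1.36-fold higher. BUB1, a checkpoint kinase and the highest of the group in FPKM, measured 52.9 with DMSO and 56.5 with JQ1, and 47.1 and 60.3 with PHA, log2 ratios of 0.09 (0.05 to 0.14) and 0.36 (0.31 to 0.40). BUB1B, which encodes BubR1, measured 28.5 FPKM with DMSO and 25.9 with JQ1, and 24.3 and 25.0 with PHA. It was the only checkpoint gene whose log2 ratio lay below 0 without PHA, at -0.14 (-0.21 to -0.08), and with PHA the ratio was 0.04 (-0.03 to 0.11). MAD2L1 lay between 21.0 and 23.6 FPKM in all libraries. TTK, the Mps1 kinase, was not detectably different without PHA (0.05, -0.02 to 0.13) and was 1.25-fold higher with PHA.

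CDC20 and UBE2C, which act on the same ubiquitin ligase, differed in opposite directions. CDC20 measured 69.4 FPKM with DMSO and 95.3 with JQ1, and 53.7 and 85.2 with PHA, log2 ratios of 0.46 (0.40 to 0.52) and 0.66 (0.60 to 0.73). UBE2C (ENSG00000175063, chromosome 20, 45812576 to 45816957) measured 27.4 FPKM with DMSO and 19.6 with JQ1, and 24.8 and 18.6 with PHA. Its log2 ratios, -0.48 (-0.61 to -0.36) and -0.42 (-0.55 to -0.29), were the lowest of the 52 genes in both comparisons. The FPKM ratio of CDC20 to UBE2C was 2.53 with DMSO and 4.86 with JQ1, and 2.16 and 4.59 with PHA. This ratio differed 1.92-fold without PHA and 2.12-fold with PHA, with intervals of the log2 difference from 0.80 to 1.08 and from 0.94 to 1.23. The pair was chosen after values were seen and holds the gene with the lowest log2 ratios. Other partners differed less, such as KIF23 to RACGAP1 (log2 difference 0.18 without PHA and 0.27 with PHA). For CCNB1 to CDK1 the log2 differences were 0.01 and -0.20. CDCA5, which encodes the cohesin protector sororin, was 1.35-fold lower after JQ1 than after DMSO, at 17.4 against 23.6 FPKM, and with PHA measured 19.9 against 19.7. PTTG1 had log2 ratios of 0.08 (-0.00 to 0.17) and 0.28 (0.19 to 0.37), and ESPL1 of 0.14 and 0.40.

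CENPE had the largest ratio of the 52 genes without PHA, and ANLN, described with the cytokinesis genes, had the largest with PHA. The 7 kinetochore genes had medians of 0.45 and 0.34. CENPE (ENSG00000138778, chromosome 4, 103105806 to 103198409), the motor that carries chromosomes to the spindle equator, measured 22.9 FPKM with DMSO and 44.1 with JQ1, and 25.6 and 43.6 with PHA. It was 1.93-fold higher without PHA, a log2 ratio of 0.948 (0.899 to 0.996), and 1.7-fold higher with PHA, 0.77 (0.72 to 0.81). CENPF, a large protein of the outer kinetochore, measured 65.9 FPKM with DMSO and 110 with JQ1, and 71.2 and 103 with PHA, log2 ratios of 0.74 (0.71 to 0.76) and 0.53 (0.50 to 0.56). Both JQ1 libraries lay above both DMSO libraries for these genes. CENPA, the centromeric histone variant, was 1.44-fold and 1.35-fold higher, from counts between 353 and 532. SLC35F6, whose span overlaps CENPA, reached 674 counts and was also higher with JQ1 (log2 0.19 without PHA and 1.85 with PHA). Its part in the CENPA counts was not tested.

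The Ndc80 complex, which grips the microtubule, differed less than CENPE and CENPF. NUF2 was 1.37-fold and 1.26-fold higher with JQ1, while its partner NDC80 had log2 ratios of 0.16 (0.07 to 0.25) and -0.00 (-0.09 to 0.09). SPC24 had log2 ratios of 0.19 (0.02 to 0.36) and 0.32 (0.15 to 0.50). SPC25, the lowest of the kinetochore genes by ratio without PHA, measured 25.9 FPKM with DMSO and 25.5 with JQ1, and 23.8 and 24.9 with PHA, and its interval included 0 in both comparisons.

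All 7 genes of spindle motors and spindle proteins had intervals above 0 in both comparisons, with medians of 0.53 and 0.39. Over all genes 28% had intervals above 0 in both, and higher counts narrow the interval. KIF11 (ENSG00000138160, chromosome 10, 92593286 to 92655395), which encodes the motor Eg5 that pushes the spindle poles apart, measured 75.8 FPKM with DMSO and 76.6 with DMSO + PHA, against 127 with JQ1 and 127 with JQ1 + PHA. JQ1 over DMSO gave 0.74 (0.70 to 0.78) on the log2 scale without PHA and 0.72 (0.68 to 0.77) with it, and PHA made no detectable difference to it (0.02 with DMSO and 0.00 with JQ1). The chromokinesin KIF4A was 1.59-fold and 1.49-fold higher, and KIF18A, which damps chromosome movements, 1.56-fold and 1.53-fold higher. DLGAP5, a spindle assembly factor, was 1.45-fold and 1.25-fold higher. HMMR had the lowest ratio of the group without PHA, with 38.9 FPKM under DMSO and 41.3 under JQ1, and 36.6 and 44.6 with PHA, log2 ratios of 0.09 (0.03 to 0.14) and 0.29 (0.23 to 0.34). KIF2C and NEK2 had log2 ratios between 0.13 and 0.39.

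Among the cytokinesis genes, ANLN, which encodes the contractile ring protein anillin, measured 18 FPKM with DMSO and 28.3 with JQ1, and 17.3 and 30.3 with PHA, log2 ratios of 0.65 (0.59 to 0.72) and 0.81 (0.74 to 0.87). KIF23 and RACGAP1, which form centralspindlin, were both higher with JQ1, KIF23 by 1.42-fold in each comparison and RACGAP1 by 1.26-fold and 1.18-fold. KIF20A had log2 ratios of 0.21 and 0.14. BRD8 and CDC23, whose spans overlap KIF20A, reached 3829 and 2597 counts against at least 1804 for KIF20A. With JQ1, BRD8 was higher (log2 0.73 and 0.69) and CDC23 lower (-0.38 and -0.21). Their part in the KIF20A counts was not tested.

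ECT2 and PRC1 had intervals on opposite sides of 0 with and without PHA, as did 4.18% of all genes. ECT2 (ENSG00000114346, chromosome 3, 172750682 to 172821474), the exchange factor that activates RhoA at the cleavage furrow, measured 21.6 and 23.2 FPKM with DMSO and JQ1, 22.1 after DMSO + PHA and 17.3 after JQ1 + PHA. The JQ1 + PHA library alone was low. PRC1 (ENSG00000198901, chromosome 15, 90966038 to 90995629), which bundles the microtubules of the spindle midzone, measured 13.5 FPKM after DMSO, 12.1 after JQ1, 9.66 after DMSO + PHA and 12.0 after JQ1 + PHA, so the DMSO + PHA library was the low one.

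Condensin I was higher with JQ1 in 4 of its 5 subunits, where 28% of all genes had intervals above 0 in both comparisons. SMC4 (ENSG00000113810, chromosome 3, 160399274 to 160434962), one of its ATPases, measured 27.6 FPKM with DMSO and 45.0 with JQ1, and 29.2 and 47.9 with PHA, log2 ratios of 0.70 (0.67 to 0.74) and 0.71 (0.68 to 0.75). NCAPG was 1.4-fold and 1.59-fold higher, NCAPH 1.37-fold and 1.53-fold, and NCAPD2 1.23-fold in each comparison. SMC2, the partner ATPase, was lower with JQ1 without PHA, 39.9 against 34.0 FPKM, a log2 ratio of -0.23 (-0.28 to -0.18), and with PHA measured 36.0 and 35.9, a ratio of -0.00 (-0.05 to 0.04). The FPKM ratio of SMC4 to SMC2 was 0.694 with DMSO and 0.810 with DMSO + PHA, against 1.32 with JQ1 and 1.33 with JQ1 + PHA. The size of this ratio rests on the gene lengths behind FPKM, 18252 bases for SMC4 and 10374 for SMC2. Only its change between libraries is therefore read here. From DMSO to JQ1 the log2 difference of the ratio was 0.93 (0.87 to 0.99) without PHA and 0.72 (0.66 to 0.78) with PHA. IFT80, whose span overlaps SMC4, reached 2415 counts against at least 9495 for SMC4 and was also higher with JQ1 (log2 0.90 and 0.89), and its part in the SMC4 counts was not tested.

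**Figure D4:**
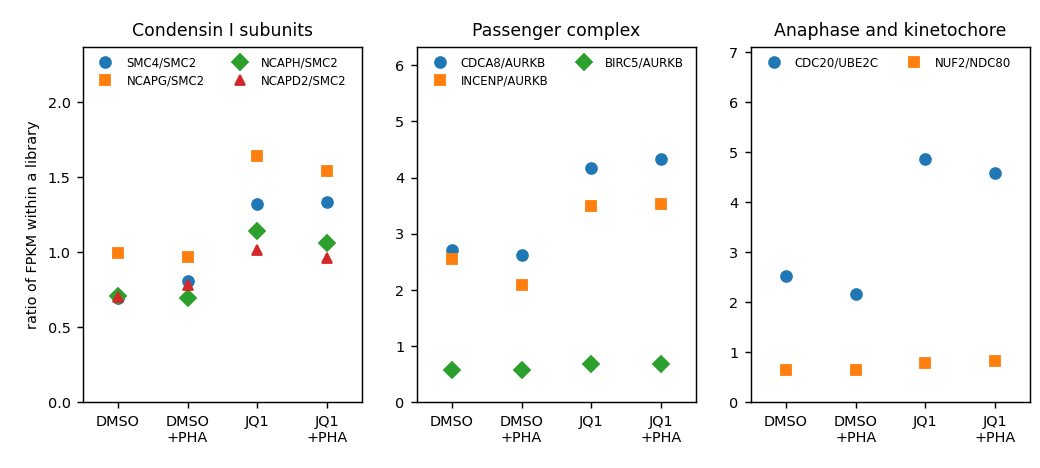
Ratio of FPKM within each library for pairs of subunits or partners (condensin I subunits over SMC2, passenger complex subunits over AURKB, CDC20 over UBE2C and NUF2 over NDC80), 1 library per condition. The SMC4 to SMC2 ratio is 0.694 and 0.810 in the libraries without JQ1 and 1.32 and 1.33 in those with it. The CDC20 to UBE2C ratio is 2.53 and 2.16 against 4.86 and 4.59. The pairs were chosen after values were seen, and the size of a ratio rests on the gene lengths behind FPKM.

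For TOP2A the log2 ratio of JQ1 to DMSO was 0.45 (0.43 to 0.48) in the absence of PHA and 0.41 (0.39 to 0.44) in its presence, the narrowest intervals of the 52 genes. MKI67, the proliferation marker that coats mitotic chromosomes, measured 19.2 FPKM after DMSO, 25.1 after JQ1, 24.6 after DMSO + PHA and 24.3 after JQ1 + PHA. As for AURKA, the DMSO library alone was low, which gave a log2 ratio of 0.39 (0.34 to 0.43) without PHA and of -0.02 (-0.06 to 0.02) with it.

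Both comparisons placed 5 genes past 1.5-fold upward, CENPE, KIF11, KIF18A, ANLN and SMC4, which is 5 of 52 against 7.82% of all genes, and 0 were 1.5-fold lower in both, against 13.2%. Implied gene length and the log2 ratio had a Spearman rho of 0.11 over the 52 genes without PHA and 0.10 with PHA, beside 0.15 and 0.14 over all genes, as a description across genes.

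PHA was compared with no PHA to see what T-cell activation did to the same genes. Neither at 2-fold nor at 1.5-fold did any of the 52 genes pass in DMSO-treated cells (0 higher and 0 lower), where 2.1% and 1.19% of all genes passed 2-fold and 5.59% and 3.83% passed 1.5-fold. In JQ1-treated cells the numbers were 0 and 0 as well, against 1.04% and 1.03% at 2-fold and 2.58% and 3.05% at 1.5-fold. The median log2 ratio was -0.05 in DMSO-treated cells and -0.02 in JQ1-treated cells, near the medians of -0.01 and -0.00 of all genes. In DMSO-treated cells 7 of the 52 intervals (13.5%) lay above 0 and 22 of the 52 below, against 24.7% and 25.1% of all genes. In JQ1-treated cells 12 of the 52 (23.1%) lay above and 10 of the 52 below, against 15.6% and 15.7%. Higher counts narrow the interval, and no share over genes of like depth was taken here.

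In DMSO-treated cells AURKA had the largest ratio of PHA to no PHA, 1.46-fold (log2 0.55, 0.46 to 0.64), followed by MKI67 at 1.28-fold. PRC1 was the lowest, at -0.48 (-0.56 to -0.41), with CDC25B at -0.48 (-0.56 to -0.40) and CDC20 at -0.37 (-0.44 to -0.30). All 5 genes of anaphase and cohesion had intervals below 0 in this comparison, against 25.1% of all genes. Of the 5, 2 lay above 0 in JQ1-treated cells, 1 below and 2 included it. Over all genes 15.6% lay above and 15.7% below in JQ1-treated cells. In JQ1-treated cells ECT2 was the lowest, at -0.43 (-0.49 to -0.36), followed by CDC25C at -0.33 (-0.51 to -0.15), and CDC25A was the highest, at 0.26 (0.13 to 0.39).

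**Figure D5:**
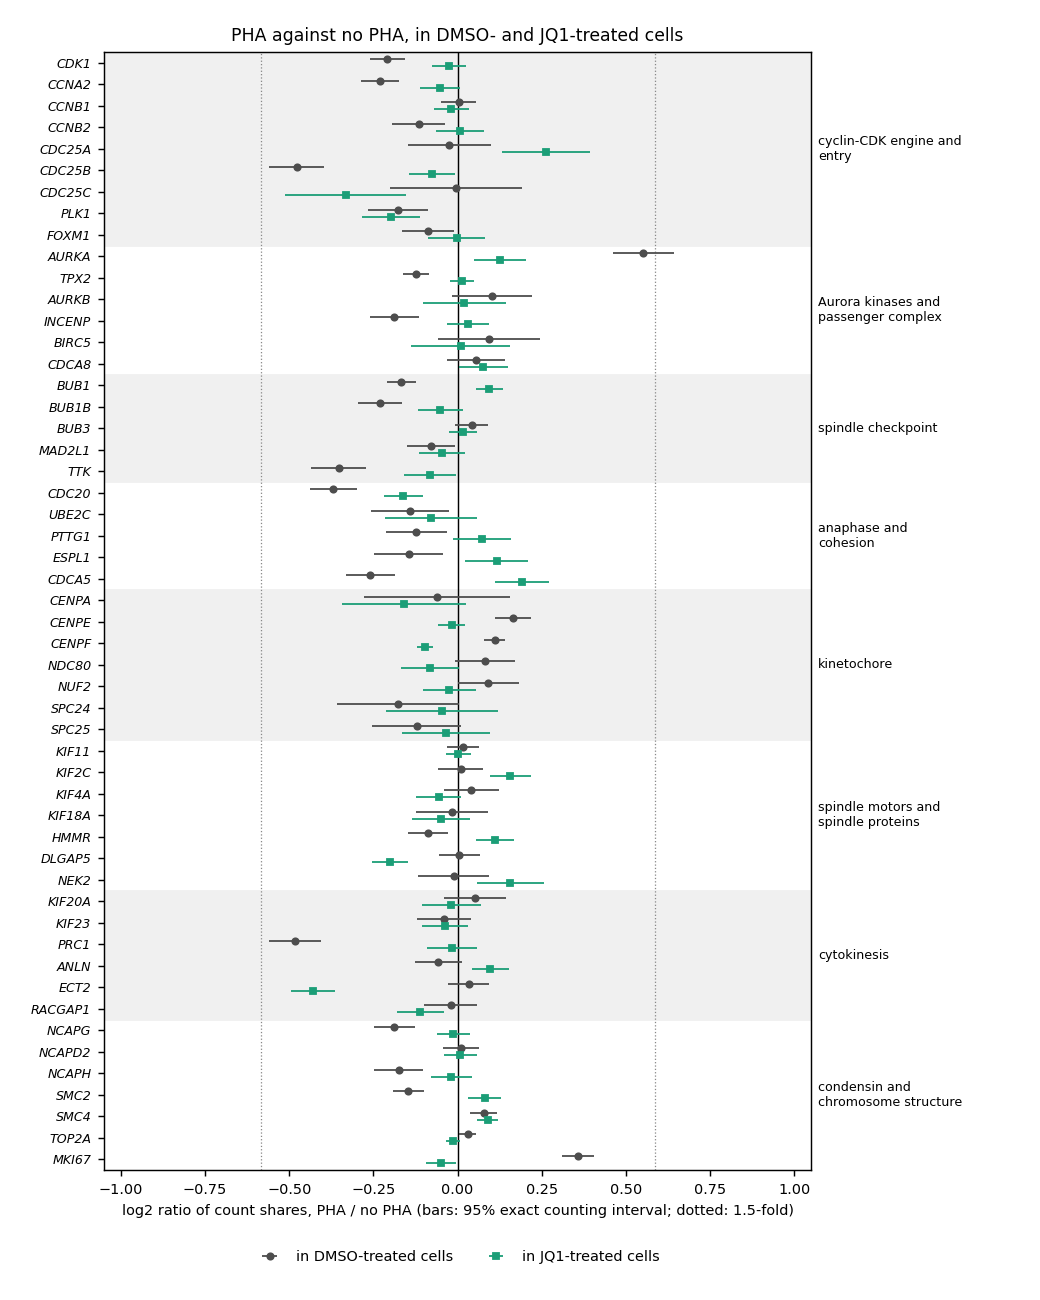
Log2 ratio of count shares, PHA over no PHA, for each gene in DMSO-treated cells (circles) and JQ1-treated cells (squares), with 95% exact counting intervals as bars and 1.5-fold as dotted lines, 1 library per condition. All points lie within 1.5-fold, and AURKA with MKI67 on one side and PRC1 with CDC25B on the other lie farthest from 0 in DMSO-treated cells.

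The JQ1 ratio differed between cells with and without PHA by more than counting error for 31 of the 52 genes. It was larger with PHA for 22, among them PRC1 (log2 difference 0.47, 0.36 to 0.57), CDCA5 (0.45, 0.34 to 0.56) and CDC25B (0.40, 0.30 to 0.51), and smaller for 9, among them ECT2 (-0.46, -0.55 to -0.37), AURKA (-0.42, -0.54 to -0.31) and MKI67 (-0.41, -0.47 to -0.34). Over all genes 20.5% were larger and 21.4% smaller. The 52 genes had a median count of 3176 against 696 over all genes that passed, and higher counts narrow the interval. No share over genes of like depth was taken for these differences. These differences rest on single libraries and have no replicate spread to be set against.

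Among 98 further mitosis genes, listed by function, 97 passed the filter, with medians for JQ1 against DMSO of 0.21 without PHA and 0.23 with PHA on the log2 scale. Without PHA 58 (59.8%) had intervals above 0 and 21 below, against 36.9% and 38.7% of all genes. With PHA the numbers were 63 (64.9%) and 15, against 34.6% and 38.2%. CASC5, the kinetochore scaffold also called KNL1, was the 1 gene past 2-fold without PHA, at 6.81 FPKM after DMSO, 16.2 after JQ1, 8.88 after DMSO + PHA and 11.9 after JQ1 + PHA. CKAP2, a spindle protein, was the 1 gene past 2-fold with PHA, at 27.3, 48.4, 15.04 and 55.4 FPKM in the same order.

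Genes of DNA replication gave other values. Of 40 S phase genes, all above the filter, 9 (22.5%) had intervals above 0 and 24 below without PHA, against 36.9% and 38.7% of all genes. With PHA the numbers were 12 (30%) and 19, against 34.6% and 38.2%. The median log2 ratios of JQ1 to DMSO were -0.19 without PHA and -0.05 with PHA. Their share of all counts was 0.648% with DMSO and 0.599% with JQ1, and 0.622% and 0.641% with PHA. RRM2, a subunit of ribonucleotide reductase, was higher with JQ1, at 66.6 against 33.2 FPKM without PHA and 69.7 against 30.9 with PHA. GINS4, a subunit of the replicative helicase, measured 1.87 FPKM with DMSO and between 6.85 and 7.56 in the other libraries, so its ratios past 2-fold against DMSO rest on that library.

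Of 23 cell cycle regulators, listed as DREAM, MuvB and E2F genes and CDK inhibitors, 20 passed the filter, with median log2 ratios of -0.17 and -0.07. The CDK inhibitors CDKN1B (p27) and CDKN2D (p19) were higher in both JQ1 libraries. CDKN1B measured 13.7 FPKM with DMSO and 36.2 with JQ1, and 14.8 and 34.7 with PHA, log2 ratios of 1.40 (1.305 to 1.505) and 1.23 (1.13 to 1.33). CDKN2D measured 4.11 and 12.8, and 3.99 and 13.2 with PHA. TFDP1, a partner of the E2F factors, measured 51.95 FPKM after DMSO, 16.9 after JQ1, 29.1 after DMSO + PHA and 25.6 after JQ1 + PHA. E2F3, at 9.41, and LIN52, a MuvB subunit, at 1.66, stood apart in the JQ1 + PHA library from values of 2.22 to 4.10 and 4.12 to 4.43 in the others.

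Reads of overlapping genes bear on some of these values. Of the 52 genes, 12 overlap a gene with at least 10% of their counts, among them CCNA2, FOXM1, KIF20A, SPC24, CENPA and CDC25C. The study's methods name a stranded library kit and the sample labels another kit, whether strand was used in counting is not given in the sources used here, and what overlapping reads add was not tested. Copies named after 14 of the genes, such as PTTG3P and KIF4B, had at most 40 counts each, at most 3.22% of the count of the parent gene.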

How the data were processed

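RNA-seq was done on Jurkat cells, 1 library per condition and 4 in all. According to the methods, the authors aligned reads to GRCh38 with Hisat2 2.0.4, and the submitters' processing notes also list TopHat2 2.0.9 and Cufflinks 2.1.1. The counting program, its use of strand and the annotation are not given in the sources used here. The deposited values are raw counts per gene and FPKM, which the authors scaled by gene length and library total. FPKM ratios were taken after a pseudocount of 0.1, for the 11503 genes whose mean FPKM reached 1. Single genes were compared by the ratio of count shares with its 95% exact (Clopper-Pearson) interval. Intervals of differences between ratios are normal approximations from the counts. No test between conditions was made. All 52 genes were described, and values in every library were given by rule for those with the highest FPKM or the largest rise or fall in each of 8 role groups and those on opposite sides of 0. Genes outside the rule, pairs of subunits and the promoter split were chosen after values were seen. The members and lists were chosen with earlier results of these data known. Of the other lists, genes past 2-fold were named, except 1 that is not reported here. Alternatives were the pseudocount, the filter, the fold, centring, and scaling by edgeR 4.0.16 (TMM) or DESeq2 1.42.0 size factors, in R 4.3.3. Steps were tested on simulated data. Other steps used scipy 1.17.1, numpy 2.4.6, matplotlib 3.10.9 and pandas 2.3.3 under Python 3.11.15.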

Additional observations from a re-analysis of the deposited data

Results flagged for a closer look

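With JQ1 against DMSO, 2 of the 52 genes had counting intervals on opposite sides of 0 without and with PHA. This share was no higher than the 4.18% of all genes. The difference between the ratios without and with PHA was not tested, because each condition is 1 library. PRC1 had a log2 ratio of -0.16 without PHA and 0.31 with PHA. ECT2 had 0.10 without PHA and -0.36 with PHA.

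With PHA against no PHA, 7 genes (against 7.19% of all genes) had intervals on opposite sides of 0 in DMSO-treated and JQ1-treated cells, which was likewise not tested. CDCA5 had a log2 ratio of -0.26 with DMSO and 0.19 with JQ1, BUB1 of -0.17 and 0.09, ESPL1 of -0.15 and 0.12, SMC2 of -0.15 and 0.08, and HMMR of -0.09 and 0.11. MKI67 had 0.36 with DMSO and -0.05 with JQ1, and CENPF 0.11 and -0.10.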

How the results depend on the processing

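At 1.5-fold in place of 2-fold, the number of genes higher with JQ1 went from 0 to 8 without PHA and from 0 to 9 with PHA, while the numbers lower with JQ1, and those higher or lower with PHA, stayed at 0. Under the other alternatives run (a pseudocount of 1, no filter, a mean FPKM of at least 5, centring, TMM and DESeq2 size factors) none of the 52 genes passed 2-fold in any comparison. The median log2 ratio of JQ1 to DMSO lay between 0.19 and 0.24 without PHA and between 0.28 and 0.36 with PHA. Of 832 single-gene ratios under a pseudocount of 1, centring and both scalings, 0 of those whose interval excluded 0 changed sign and 33 moved by more than their counting error. Scaling moved the median gene by at most 0.06 (log2). No paired analysis was possible because each condition is 1 library. An additive fit of JQ1 and PHA over the 4 libraries, which would treat their interaction as error, was not run. Replicate spread is unknown, and every one of the 52 genes had at least 353 counts.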
